A study of Mus musculus with 29 samples.

Results

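MiR-204 is a microRNA with 2 arms, miR-204-5p and miR-204-3p, cut from the 2 sides of 1 hairpin. Both were followed in gonadal white adipose tissue (gWAT) of mice that were prone or resistant to diabetes. The rows were chosen by name, as every mature and hairpin row of the small RNA count table that carries either arm. This gave 4 of 3097 mature and hairpin rows, or 4 of 5355 rows in all. The mice were genetically identical New Zealand Obese females of the strain NZO/HIBomDife. All of them were fed a high-fat diet and were sampled at 10 weeks of age. After 5 weeks of the diet, each mouse had been placed by a risk score among the diabetes-prone (DP, n = 15) or the diabetes-resistant (DR, n = 14) animals. The groups thus differ in a measured trait, and neither the labels nor the methods name an allele or an agent that separates them. Each library came from 1 mouse and held 24266300 to 27662601 reads, of which 20385384 to 23214934 were counted on mature and hairpin miRNAs.

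A mature miRNA guides the silencing machinery to messenger RNAs, mainly through bases 2 to 8 from its 5′ end, which are called the seed. The arm that is kept is the guide, and the other, the passenger arm, is mostly degraded. MiR-204 is best known from the retinal pigment epithelium and other epithelia and from pancreatic beta cells. In mesenchymal progenitor cells it represses Runx2, a transcription factor of bone formation, and thereby favours the fat cell over the bone cell lineage. The RNA analysed here came from whole tissue, in which fewer cells of a type and less of an RNA per cell cannot be told apart.

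The 2 arms and the miRNAs that share a seed with them are shown first, since the seed decides which counts belong to a family of like targets and a single base separates miR-204-5p from miR-211-5p. The sequences were taken from RefSeq (GRCm38.p6) and are written 5′ to 3′ with the seed in capitals.
mmu-miR-204-5p: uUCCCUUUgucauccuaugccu
mmu-miR-211-5p: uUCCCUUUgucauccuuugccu
mmu-miR-7670-3p: uUCCCUUUcugaauaucuguaga
mmu-miR-204-3p: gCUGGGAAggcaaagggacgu
mmu-miR-7684-5p: uCUGGGAAgccugggcagcag
MiR-204-5p and miR-211-5p differ by A17U, counted from the 5′ end of miR-204-5p, which lies outside the seed. The 2 arms of miR-204 have different seeds, and in both of them the mouse sequence was identical to the human one over its full 22 and 21 bases. The GC content was 45.5% in the 5p arm and 61.9% in the 3p arm.

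The hairpin gene Mir204 lies on the forward strand at chr19:22750605-22750672 (GRCm38, the assembly that mm10 denotes), with the 5p arm at chr19:22750610-22750631 and the 3p arm at chr19:22750649-22750669. It is 68 bases long, and 17 bases separate the arms. Mir204 sits within Trpm3, a gene for a cation channel, on the same strand. Of 24 annotated Trpm3 transcripts (GENCODE vM21), 18 span the hairpin, which is intronic in all 18 and overlaps an exon in 0. The nearest other miRNA genes, Mir3084-1 and Mir101b, are 2.192 and 6.385 Mb away, so that Mir204 shares no cluster with either of them. Mir211 lies on chromosome 7, with miR-211-5p at chr7:64205831-64205852.

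Mature miR-204-5p, the abundant arm, was lower in DP than in DR mice. It ranged from 331.8 to 533.9 CPM (read counts scaled to 1000000 counts of a library after TMM normalization) in DP mice, with a median of 438.7, on 8144 to 11443 reads a library. In DR mice it ranged from 515.4 to 845.4 CPM with a median of 709.2, on 11075 to 19042 reads. The groups overlapped only by DP 3 and DP 5, at 533.9 and 525.4 CPM, and by DR 11 at 515.4 CPM. All 15 DP mice lay below the DR median, and 13 lay below every DR mouse. The mean was 435.6 ± 60.1 CPM in DP mice (SD, n = 15) and 697.5 ± 99.7 CPM in DR mice (SD, n = 14). The log2 fold change of DP over DR was -0.68 (SE 0.077, 95% interval -0.84 to -0.52, adjusted p = 2.1e-07 by edgeR's quasi-likelihood test), which is 37.5% lower in DP mice.

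Of all 1162 mature and hairpin rows tested, 301, or 25.9%, passed an adjusted p of 0.05, 138 of them lower in DP mice (11.9%) and 163 higher (14.0%). With library totals in place of TMM, 102 were lower and 238 higher. Of the 4 rows of miR-204, 3 passed, and all 3 were lower. By p-value, mature miR-204-5p stood 5th of the 1162 rows. The coefficient of biological variation between mice of 1 group, as fitted by edgeR, was 18.1% for this row, beside a median of 23.0% over all rows and of 22.2% over the 64 rows of like abundance. Groups that did not overlap at all were found in 4 rows, or 0.344%, and no row of miR-204 was among them.

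The hairpin row of miR-204-5p, which the table names by the arm, showed the same direction. Its range was 90.57 to 148.1 CPM in DP mice (median 115.5) and 130.7 to 223.5 CPM in DR mice (median 175.5). In this row 11 of 15 DP mice lay below every DR mouse, and 11 of 14 DR mice above every DP mouse. The mean was 117.4 ± 18.8 CPM in DP mice (SD, n = 15) and 175.9 ± 28 CPM in DR mice (SD, n = 14), with a log2 fold change of -0.58 (SE 0.086, adjusted p = 7.52e-06, edgeR). How the authors' pipeline divided reads between mature and hairpin rows is not given in the sources used here, so the hairpin row is not taken as a measure of the precursor or as independent of the mature row.

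MiR-204-3p, the scarce arm, was also lower in DP mice, but at far lower counts. Its mature row held 5 to 48 reads in DP and 15 to 66 reads in DR libraries. The range was 0.2183 to 2.303 CPM in DP mice (median 1.077) and 0.6559 to 2.907 CPM in DR mice (median 1.972). The groups overlapped widely, yet 14 of 15 DP mice lay below the DR median. The mean was 1.148 ± 0.494 CPM in DP mice (SD, n = 15) and 1.894 ± 0.678 CPM in DR mice (SD, n = 14). The log2 fold change was -0.72 (SE 0.226, 95% interval -1.18 to -0.26, adjusted p = 0.0165, edgeR).

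The hairpin row of miR-204-3p did not pass the test. It ranged from 0 to 15 reads in DP and from 2 to 32 reads in DR libraries, and its mean count was just above the filter of 10. In CPM, the mean was 0.379 ± 0.218 (SD, n = 15) in DP and 0.577 ± 0.339 (SD, n = 14) in DR mice. The log2 fold change was -0.61 (95% interval -1.29 to 0.08, adjusted p = 0.183, edgeR), so the interval includes both no difference and the size seen in the mature row. DP 2 was the lowest library in both rows of the 3p arm, with 5 mature reads and 0 hairpin reads, which allows up to 0.131 CPM by counting error. In the same library miR-204-5p stood at 471.1 CPM, within the range of the other DP mice.

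**Figure D1:**
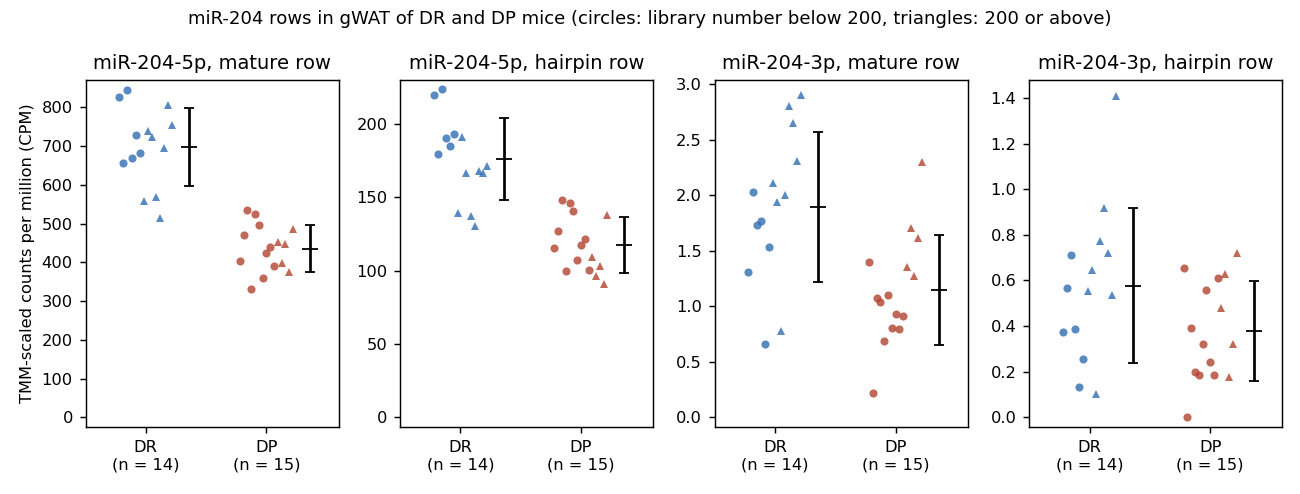
Each point is 1 mouse, with TMM-scaled CPM on the vertical axes, which differ between the 4 panels, and bars give the mean and SD of 14 DR and 15 DP mice. In the mature row of miR-204-5p, 13 of 15 DP mice lie below every DR mouse, whereas the rows of miR-204-3p overlap widely and most triangles of its mature row, the libraries numbered 200 or above, lie above the mean of their group.

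The 2 arms differed far in level. The reads summed over each group gave 380.7 reads of miR-204-5p for each read of miR-204-3p in DP mice and 368.1 in DR mice, in the mature rows. In log2 units this ratio averaged 8.68 ± 0.80 (SD, n = 15) in DP and 8.60 ± 0.72 (SD, n = 14) in DR mice. The difference of 0.08 was smaller than the spread between mice (two-sided permutation test, p = 0.798, 0.859 when adjusted over 4 ratios). Among 145 hairpins with both arms tested, 12 had a higher ratio of 5p to 3p reads than miR-204. The 5p arm ranked 71st in DP and 61st in DR mice among 1571 mature rows by mean CPM, and the 3p arm ranked 467th and 410th. MiR-204-5p made up 0.0815% of the mature reads in DP and 0.119% in DR mice.

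The hairpin row of miR-204-5p held 0.2698 reads for each mature read in DP mice and 0.2531 in DR mice. The log2 ratio differed by 0.10 between the groups (two-sided permutation test, p = 0.048, 0.192 when adjusted over 4 ratios), which did not pass. For the 3p arm the summed ratios were 0.332 and 0.307, with a difference of 0.09 on the log2 scale (permutation p = 0.721, adjusted 0.859). Both arms had few hairpin reads for their mature reads, since 430 of 471 names with both kinds of row had a higher ratio than miR-204-5p, and 414 a higher one than miR-204-3p.

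The labels number the libraries, and what the number stands for is not stated. Below 200 there were 10 DP and 6 DR libraries, and from 200 on there were 5 DP and 8 DR libraries. This division was taken from earlier results of these data. Mature miR-204-5p showed no relation to the number that passed, with a Pearson r of 0.05 (permutation p = 0.781) and a Spearman rho of 0.06 (p = 0.744) over 29 libraries. Its difference was present on both sides of 200. In the libraries below 200 the mean was 437.4 ± 68.7 CPM (SD) in 10 DP and 734.4 ± 82.5 CPM (SD) in 6 DR mice, with a log2 fold change of -0.74 (edgeR, adjusted p = 0.0001). In those from 200 on it was 432.0 ± 44.7 CPM (SD) in 5 DP and 669.8 ± 107.0 CPM (SD) in 8 DR mice, with a log2 fold change of -0.61 (edgeR, adjusted p = 0.0463). Of the 1162 rows, 301 passed below 200 and 4 from 200 on, where 3 were higher in DP mice and mature miR-204-5p was the 1 that was lower. It passed narrowly there, and other lower rows lay just past the threshold. Among them were its hairpin row (-0.54, adjusted p = 0.0589, edgeR) and mature miR-149-5p (-0.55, adjusted p = 0.0589, edgeR).

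The 3p arm followed the number. Mature miR-204-3p rose with it, with a Pearson r of 0.55 over 29 libraries (permutation p = 0.0017, adjusted p = 0.00467 over 11 relations) and a Spearman rho of 0.54 (permutation p = 0.00319, adjusted p = 0.00877). With the 2 libraries of the most distant numbers left out, r was 0.61. Within DP mice r was 0.61 and rho 0.53 (adjusted permutation p = 0.0343 and 0.121 over 22 relations), and within DR mice r was 0.48 and rho 0.67 (adjusted permutation p = 0.213 and 0.0504). Within the groups the relation thus passed only by r in DP mice. The DP mean was 0.897 CPM below 200 and 1.65 CPM from 200 on, and the DR mean was 1.50 and 2.19 CPM. DP mice from 200 on thus had about the level of DR mice below 200. Within the libraries below 200 the log2 fold change of the 3p arm was -0.74 (edgeR, adjusted p = 0.0589), and within those from 200 on it was -0.39 (adjusted p = 0.495), so that it did not pass on either side alone. With the number as a term in the fit the 3p arm still passed (-0.63, adjusted p = 0.0144 as a linear term, and -0.59, adjusted p = 0.0217 as a division at 200). No row passed a test of whether the difference depended on the number (0 of 1162 by edgeR, 72 at an unadjusted p under 0.05), and for the 4 rows of miR-204 the adjusted p of that test was 0.949 to 0.965.

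The ratio of hairpin to mature reads of miR-204-5p also followed the number, a relation that was computed after its values were seen. It fell from a mean of 0.277 ± 0.0129 (SD) in the 16 libraries below 200 to 0.242 ± 0.0180 (SD) in the 13 from 200 on. Over 29 libraries Pearson's r with the log2 ratio was -0.71 (permutation p = 2e-05, adjusted 7.33e-05) and Spearman's rho was -0.67 (permutation p = 0.0001, adjusted 0.000367), and r was -0.71 without the 2 farthest libraries. Within DP mice r was -0.61 and rho -0.50 (adjusted permutation p = 0.047 and 0.141), so that the relation passed there by r only. Within DR mice r was -0.79 and rho -0.83 (adjusted permutation p = 0.00363 and 0.00396). For the hairpin row itself, r with the number was -0.41 in DP and -0.66 in DR mice (adjusted permutation p = 0.247 and 0.0343), the latter with a rho of -0.65 that did not pass (adjusted permutation p = 0.0504). For the mature row it was -0.11 and -0.25 (adjusted permutation p = 0.741 and 0.505). The part that the library number has in the difference of the hairpin row was not tested beyond the fits with the number as a term and on each side of 200, in which the log2 fold change was -0.69 below 200 (adjusted p = 9.28e-05) and -0.54 from 200 on (edgeR, adjusted p = 0.0589).

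Between mice, the mature and the hairpin row of an arm moved together, whereas no relation passed between the 2 arms. Mature and hairpin log2 CPM of miR-204-5p had an r of 0.95 and a rho of 0.93 over all libraries (adjusted permutation p = 5.5e-05 for both). The r was 0.85 within DP and 0.84 within DR mice (adjusted permutation p = 0.00121 and 0.00176), with a rho of 0.88 and 0.64 (adjusted permutation p = 0.00044 and 0.0504). It was 0.99 below and 0.96 from library number 200 on. Without the 2 farthest libraries r was 0.94. For miR-204-3p the r of mature with hairpin log2 CPM was 0.85 over all libraries (rho 0.79, adjusted permutation p = 5.5e-05 for both), 0.79 in DP mice, 0.92 in DR mice and 0.75 with the 2 farthest libraries left out. The adjusted permutation p in DP mice was 0.00735 for r and 0.0504 for a rho of 0.64, and in DR mice 0.00044 for r and 0.00572 for a rho of 0.81. Mature miR-204-5p and miR-204-3p had an r of 0.33 (rho 0.37, adjusted permutation p = 0.137 and 0.0888) over all libraries and of 0.31 without the 2 farthest. Within the groups r was -0.14 in DP and -0.30 in DR mice (adjusted permutation p = 0.702 and 0.43), so no relation was found there. The values of miR-204-3p rested on 5 to 66 reads a library. All of these values share each library and its scaling. The total of a library had an r of 0.02 with mature miR-204-5p (rho 0.01, permutation p = 0.913 and 0.956).

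**Figure D2:**
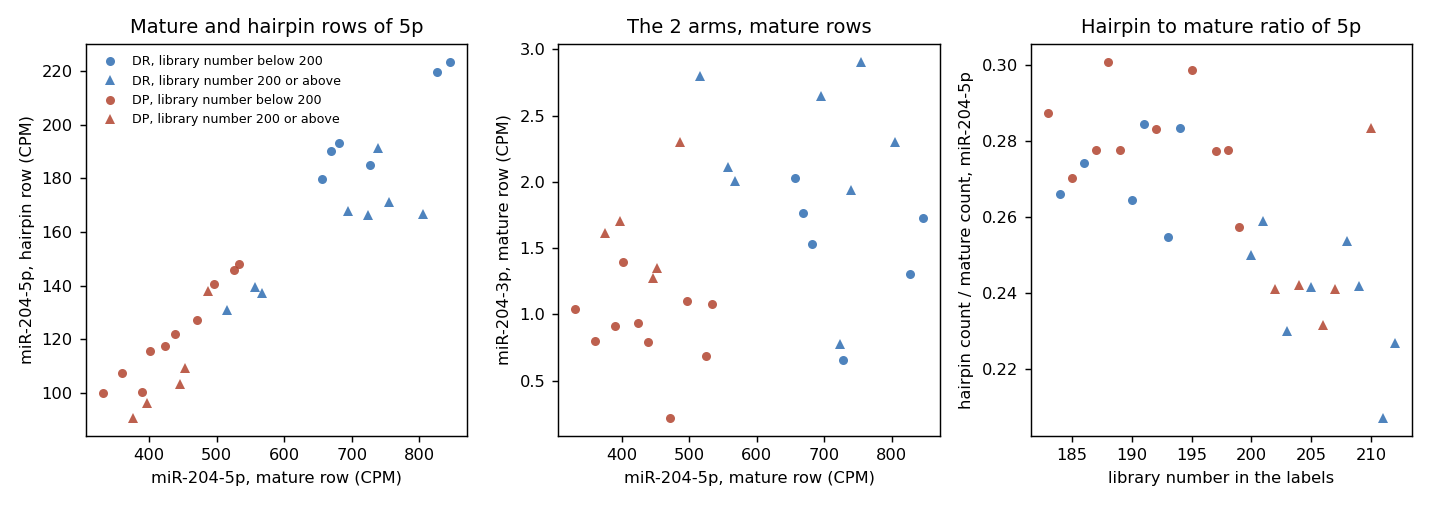
The left and middle panels plot CPM of 2 rows against each other and the right panel plots the ratio of hairpin to mature reads of miR-204-5p against the library number, with 1 point per mouse. The rows of miR-204-5p rise together (r of 0.95), and the 2 arms form no line within either group. The ratio has a mean of 0.277 below number 200 and of 0.242 from 200 on.

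Within the seed family, nearly all reads came from miR-204-5p. It held 358233 reads over the 29 libraries, 99.68% of those of the seed, while miR-211-5p held 1140 (0.317%) and miR-7670-3p held 2. Adding the 3 gave a mean of 437.3 ± 60.0 CPM in DP mice (SD, n = 15) and 699.3 ± 99.98 CPM in DR mice (SD, n = 14), close to miR-204-5p alone. MiR-211-5p, the paralog that lies within the melastatin gene Trpm1, had a log2 fold change of -0.03 in its mature row (95% interval -0.34 to 0.28, adjusted p = 0.913, edgeR) and of -0.50 in its hairpin row (adjusted p = 0.0595). The mature value turned to 0.05 with library totals, and the hairpin row passed with median-of-ratios size factors (-0.52, adjusted p = 0.0475), by DESeq2 (adjusted p = 0.0361) and with the number as a linear covariate (adjusted p = 0.0309). How reads that match both paralogs were counted is not stated, so the low count of miR-211-5p is uncertain. MiR-7684-5p, which shares the seed of miR-204-3p, had no mature row among the counts and could not be analysed. MiR-211-3p shares a seed with neither arm.

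**Figure D3:**
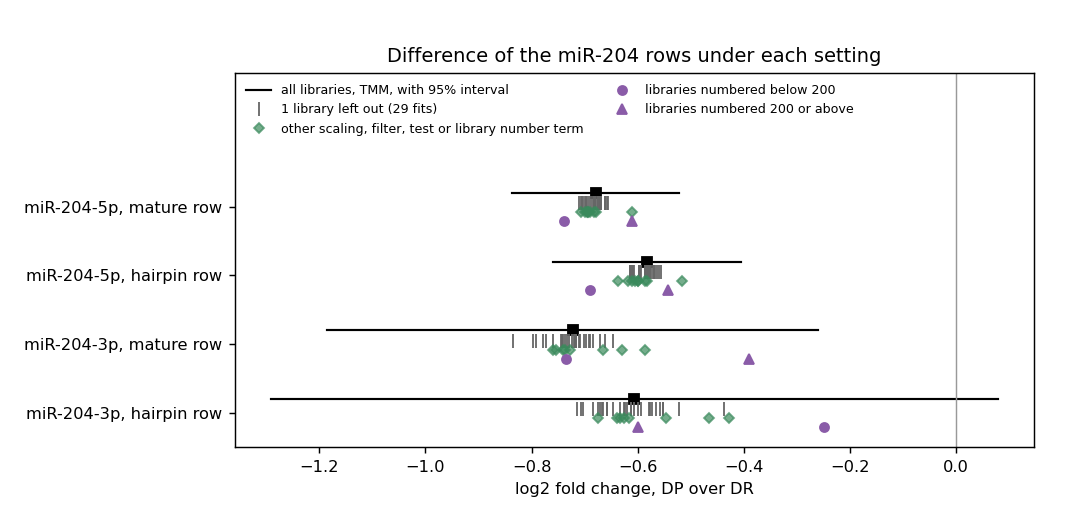
The horizontal axis gives the log2 fold change of DP over DR for the 4 rows, with the 95% interval of the fit to all libraries as a line and the other settings as marks under it. For the mature row of miR-204-5p every mark lies between -0.74 and -0.61, and for the hairpin row of miR-204-3p the interval of -1.29 to 0.08 crosses 0.

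On chromosome 19, 11 mature miRNAs were tested. The 2 arms of miR-204 were the 2 that were lower in DP mice, 1 was higher, and the median log2 fold change was -0.08. The one that was higher was miR-146b-5p, which restrains inflammatory signalling, with a log2 fold change of 0.74 (adjusted p = 2.96e-05, edgeR). The nearest neighbour in the table, miR-3084-5p, had a log2 fold change of -0.23 (adjusted p = 0.138). Over all 1162 mature and hairpin rows tested, 11.9% were lower in DP mice and 14.0% higher.

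MiR-204 was then read beside other miRNAs with a reported role in the fat cell lineage, from lists that do not hold it. Of 19 miRNAs on the list of those that promote adipogenesis, 4 were lower in DP mice, 3 were higher and 12 did not pass, with a median log2 fold change of -0.09 beside 0.02 over all mature rows tested. MiR-143-3p, which is induced as preadipocytes differentiate, fell with a log2 fold change of -0.47 (adjusted p = 2.47e-06), and miR-378a-3p, which lies within the gene of the coactivator PGC-1β, with -0.44 (adjusted p = 0.000238). MiR-21a-5p and miR-146b-5p of the same list rose, both with a log2 fold change of 0.74. Of 17 miRNAs on the list of those that inhibit adipogenesis, 16 were tested, of which 4 were lower, 4 higher and 8 did not pass, with a median of -0.01. The paralogs miR-222-3p and miR-221-3p rose with log2 fold changes of 1.16 and 0.999, and miR-27b-3p, which represses PPARγ, with 0.38 (adjusted p = 0.000201). MiR-145a-5p fell, with a log2 fold change of -0.60 (adjusted p = 0.00363). With library totals in place of TMM the median of this list was 0.07 in place of -0.01, so its sign is not read. These p-values are those of edgeR over all 1162 rows, of which 11.9% were lower in DP mice and 14.0% higher.

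Of 11 other miRNAs reported to target Runx2, 9 were tested, of which 2 were lower, 2 higher and 5 did not pass. MiR-135a-5p fell, at 17.2 ± 3.3 CPM in DP mice (SD, n = 15) and 35.7 ± 8.7 CPM in DR mice (SD, n = 14), with a log2 fold change of -1.05 (edgeR, adjusted p = 1.87e-07). MiR-30c-5p also fell (-0.70, adjusted p = 0.00445), while miR-34c-5p (1.07, adjusted p = 1.68e-07) and miR-205-5p (0.53, adjusted p = 0.00881) rose. The miRNAs of this list that passed thus lay on both sides of 0. The median log2 fold change of the list was -0.24. The shares over all 1162 rows were 11.9% lower and 14.0% higher in DP mice.

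MiRNAs that mark cell types of the tissue moved between the groups as well, and every miRNA of the cell type lists had reads. For comparison, 11.9% of all 1162 rows were lower in DP mice and 14.0% higher. Of 7 miRNAs on the adipocyte list, 3 were lower in DP mice, 0 higher and 4 did not pass. Every one of them had a negative log2 fold change, with a median of -0.41. Their summed level was 3915 to 6256 CPM in DP mice and 5372 to 9276 CPM in DR mice. Of this list, miR-378a-3p, miR-378a-5p, miR-30a-5p, miR-30c-5p and miR-148a-3p were also on the pro-adipogenic list. MiR-30a-5p and miR-30c-5p were on the Runx2-targeting list too, so these lists are not separate observations. MiR-193b-3p, known for its part in forming brown adipocytes, fell (-0.82 on the log2 scale, edgeR, adjusted p = 0.000154), while miR-30a-5p had one of -0.33 and did not pass (adjusted p = 0.0948). With library number in the fit miR-30a-5p passed, at -0.39 as a linear covariate (edgeR, adjusted p = 0.0257) and -0.40 as a division at 200 (adjusted p = 0.0232). Both endothelial miRNAs were lower in DP mice, with log2 fold changes of -0.28 for miR-126a-3p and -0.33 for miR-126a-5p, and their sum ranged from 55440 to 79480 CPM in DP mice and from 69420 to 99150 CPM in DR mice. With library totals in place of TMM only miR-126a-3p was lower, and miR-126a-5p also did not pass without a filter (adjusted p = 0.0545) or by limma-voom (adjusted p = 0.0527). Of 8 leukocyte miRNAs, 5 were higher, 1 lower and 2 did not pass, with a median log2 fold change of 0.41. The sum ranged from 6744 to 9040 CPM in DP mice (median 7588) and from 6544 to 10650 CPM in DR mice (median 8298). In this list miR-342-3p, miR-142a-3p and the myeloid miR-223-3p rose, with log2 fold changes of 0.88, 0.86 and 0.39. MiR-150-5p, abundant in lymphocytes, fell with -0.49. The part that the makeup of the tissue has in the level of miR-204 was not tested.

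MiR-204 is known from epithelia and islets, so their miRNAs were checked too. Again, the shares over all 1162 rows were 11.9% lower and 14.0% higher in DP mice. MiR-34c-5p, miR-205-5p and miR-133a-3p of the lists below were also on the Runx2-targeting list. Of 5 miRNAs of ciliated epithelium, 4 were higher in DP mice, 0 lower and 1 did not pass, and the sum was 113.3 to 153.2 CPM in DP mice and 72.23 to 117.4 CPM in DR mice. Those were the arms of 2 hairpins of 1 locus, miR-34b-3p, miR-34c-5p, miR-34c-3p and miR-34b-5p, with log2 fold changes of 0.94, 1.07, 0.85 and 0.82. The direction of these 4 was opposite to that of miR-204. The 1 that did not pass, miR-449a-5p, had a log2 fold change of -0.13 (edgeR, adjusted p = 0.297). Its mean was 41.5 CPM in DP mice and 45.55 CPM in DR mice. Of 6 epithelial miRNAs, 1 was lower (miR-200b-3p, -0.41), 2 were higher (miR-205-5p, 0.53, and miR-200c-3p, 0.38) and 3 did not pass, among them miR-141-3p at 0.60 (adjusted p = 0.207). MiR-200b-3p no longer passed with library totals (edgeR, adjusted p = 0.0875) or without a filter on low counts (adjusted p = 0.0597), and neither did miR-200c-3p without the filter (adjusted p = 0.0633). The sum of the 6 epithelial miRNAs was 44.17 to 151.2 CPM in DP mice and 48.45 to 67.22 CPM in DR mice. Its median was lower in DP mice, at 54.87 CPM beside 59.81 CPM in DR mice, so the wide DP range reflects its upper end. Of the 2 islet miRNAs, miR-7a-5p was higher (0.49, adjusted p = 0.000392) and miR-375-3p, the islet marker, did not pass (-0.33, adjusted p = 0.285), with a sum of 151.2 to 250.8 CPM in DP mice and 114.2 to 210.6 CPM in DR mice. None of the 3 neuronal miRNAs (miR-9-5p, miR-124-3p and miR-128-3p) and none of the 3 muscle miRNAs (miR-1a-3p, miR-133a-3p and miR-206-3p) passed. The neuronal sum was 33.69 to 53.73 CPM in DP mice and 39.43 to 56.25 CPM in DR mice, and the muscle sum was 9.685 to 341.9 and 19.88 to 703.2 CPM. The part that epithelial or islet cells have in the level of miR-204 was not tested.

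**Figure D4:**
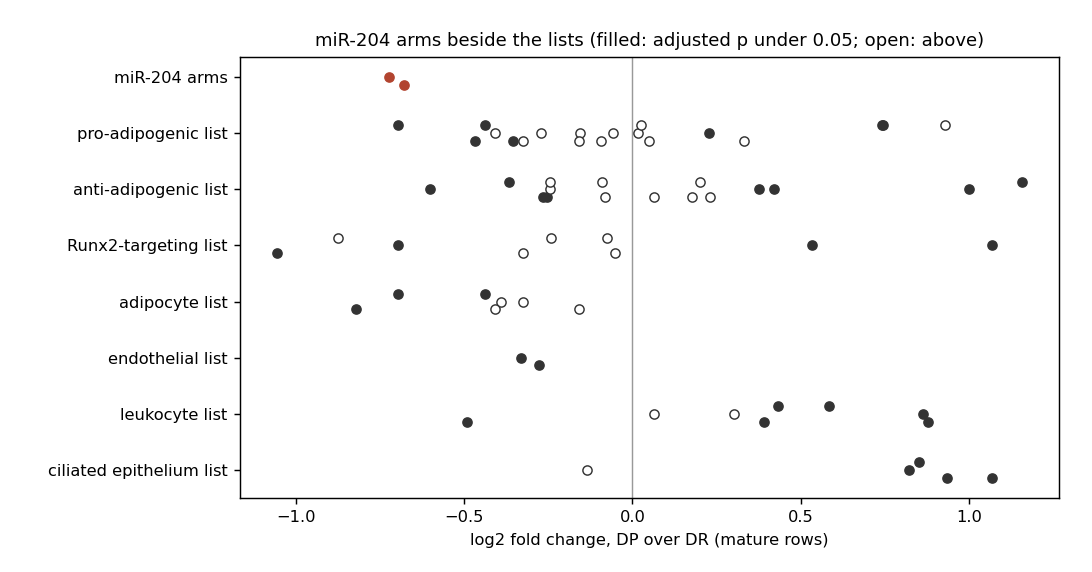
The horizontal axis gives the log2 fold change of DP over DR of mature rows, with the arms of miR-204 in the top line, each miRNA of 7 lists as a point, and filled points for an adjusted p under 0.05. Both arms of miR-204 lie near -0.7, the pro-adipogenic, anti-adipogenic and Runx2-targeting lists hold filled points on both sides of 0, and 4 of 5 miRNAs of the ciliated epithelium list lie to the right.

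The miRNAs whose levels varied between mice most like those of miR-204-5p were found by Pearson's r of log2 CPM over 29 libraries after each group's mean was subtracted, among 264 mature miRNAs with a mean of at least 10 CPM. These r are descriptions, since all points share library and scaling, and their median was 0.02. The most like were miR-149-5p (r of 0.63), miR-676-3p (0.58), miR-338-5p (0.53), miR-151-5p (0.49), miR-744-3p (0.48) and miR-193a-5p (0.48). Of these 6, miR-149-5p had an r of 0.56 within DP and 0.69 within DR mice, and its level was 132 CPM in DP mice and 195 CPM in DR mice (log2 fold change -0.56, adjusted p = 3.58e-06, edgeR). MiR-338-5p did not pass the DP against DR test (-0.20, adjusted p = 0.285), and the other 5 were lower in DP mice, miR-744-3p not with library totals (adjusted p = 0.176). The least like were miR-501-3p (r of -0.64), miR-326-3p (-0.51), miR-500-3p (-0.51) and miR-329-3p (-0.48). MiR-501-3p was at 112 CPM in DP mice and 76.7 CPM in DR mice (log2 fold change 0.55, adjusted p = 0.000324, edgeR), and its r with miR-204-5p was -0.63 within DP and -0.66 within DR mice.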

How the data were processed

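Small RNA of gWAT of 15 DP and 14 DR mice was analysed. According to the methods of the study, the authors used a BGISEQ-500 sequencer and assigned reads to miRNAs with miRDeep2. Bowtie2 and mm10 are named in the submitters' processing notes. The deposited values are raw read counts for each mouse. The handling of reads with several matches is not given in the sources used here. Only the mature and hairpin miRNA rows were analysed, and rows of other RNA types were left out. Entries that name no RNA (exon, intron, intergenic, repeat) held a median of 8.39% of a library's reads and were left out too. No 2 of the 406 pairs of libraries were alike within sampling noise.

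Rows with a mean count above 10 (574 mature, 588 hairpin) were scaled by TMM and tested with the quasi-likelihood F-test of edgeR 4.0.16 in R 4.3.3, DP against DR with no covariate, and p-values were adjusted by Benjamini-Hochberg across the 1162 rows (threshold 0.05). Log2 CPM used a prior count of 2. Ratios used counts plus 0.5. Permutation tests used 100000 permutations, two-sided, in numpy 2.4.6, for which 1e-05 is the smallest p. Ranks for Spearman's rho were taken with scipy 1.17.1. The 95% intervals come from the edgeR fit and include the variation between mice. Reads carry no molecular identifiers, and the limits (3 reads where 0 were counted) cover counting error only. Fits were tested on simulated data.

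The members and lists were chosen with earlier results of these data known. Named miRNAs are the members, RefSeq miRNAs that share a seed with an arm and miR-211-3p, up to 4 members with the smallest p from each list (pro-adipogenic, anti-adipogenic, Runx2-targeting, adipocyte, endothelial, leukocyte, epithelial, ciliated epithelium, islet, neuronal, muscle), and the 6 most and 4 least like miR-204-5p. The neighbours of Mir204 were named in addition. Alternatives were median-of-ratios size factors, library totals, no filter, a mean count above 50, rows of 1 type alone, DESeq2 1.42.0, limma-voom (limma 3.58.1), library number as a term or a subset, and leaving out each library. Subsets kept the rows that passed the filter in all libraries. Replicate numbers are accession order only. No paired analysis was possible because the labels give no number that pairs mice.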

Additional observations from a re-analysis of the deposited data

How the results depend on the processing

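Mature miR-204-5p passed in all 11 alternatives, with log2 fold changes of -0.74 to -0.61, and in all 29 fits without 1 library (-0.71 to -0.66, adjusted p up to 7.02e-07, edgeR). Its hairpin row passed in 10 of 11, the exception being the libraries numbered 200 or above alone (-0.54, adjusted p = 0.0589). Mature miR-204-3p passed in 8 of 10, but neither in the libraries below 200 (-0.74, adjusted p = 0.0589) nor in those from 200 on (-0.39, adjusted p = 0.495), where fewer mice were compared. Without 1 library it ranged from -0.83 to -0.65, with an adjusted p of 0.00446 to 0.0323. A mean count above 50 left no value for either row of miR-204-3p. Its hairpin row did not pass in any of 10 alternatives (-0.68 to -0.25).

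None of the 4 ratios passed. The hairpin to mature ratio of miR-204-5p, 0.10, kept its sign throughout (0.05 to 0.10, and 0.07 to 0.11 without 1 library), and the other 3 changed sign. The log2 ratio of 5p to 3p, 0.08 in the mature rows, was -0.28 from number 200 on and -0.0863 to 0.1881 without 1 library, the lowest without DP 2. In the hairpin rows, 0.09 became -0.21 below 200, -0.0703 from 200 on and -0.20 to 0.23 without 1 library, again lowest without DP 2. The hairpin to mature ratio of miR-204-3p, 0.09, was -0.15 from 200 on and -0.0026 to 0.2088 without 1 library. The cause was not tested.

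Of the 6 miRNAs most like miR-204-5p, 3 were shared when group means were not subtracted. For 47 rows of other named miRNAs, 460 of 513 values kept their direction and side of the threshold, 40 lost and 6 gained the call, and 7 turned sign without passing before or after. From number 200 on these were miR-141-3p (-0.0584), miR-124-3p (0.0130) and miR-128-3p (-0.0165), which was also -0.0048 without a filter. Mature miR-211-5p was 0.0515 with library totals, 0.0039 by limma-voom and 0.1829 below 200.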
